A study of Mus musculus with 6 samples.

Results

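The p53 pathway was followed in mouse prostate through p53 and 9 of its best known target and partner genes: Mdm2, Mdm4, Cdkn1a, Ccng1, Trp53inp1, Phlda3, Zmat3, Ei24 and Sesn1. The members were taken by name, as every probe set whose platform annotation gave exactly 1 symbol and that symbol was on the list of 10. Of the 10 genes, 9 had such a probe set, with 21 probe sets in all among 45037 tested, and those 9 stood among 18193 genes with a probe set of 1 symbol. Trp53, the gene of p53 itself, had no probe set with that single symbol and was not analysed here. The values below are therefore of genes listed as p53 targets or partners, not of the p53 transcript.

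Both groups were intact male TRAMP mice, (C57BL/6 TRAMP x FvB) F1, randomised and dosed by oral gavage for 4 weeks, from 6 to 10 weeks of age. The treated group received OSU-CG5, a compound known by its code name, at 100 mg/kg per day, and the control group received vehicle. Dorsal and lateral prostate lobes were microdissected 2 to 4 h after the last dose, and 3 mice per group were measured on 1 Affymetrix array each. The TRAMP transgene places the SV40 T antigens under a probasin promoter, which is active mainly in prostate epithelium, and it was carried by vehicle and treated mice alike. No mouse without the transgene was among the samples, so the level of the pathway in normal prostate was not measured.

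As background, p53 is a transcription factor that is stabilised after DNA damage and other stresses and then switches on genes of cell cycle arrest, repair, metabolism and cell death. Mdm2, its ubiquitin ligase, and Mdm4, a related protein that covers its activation domain, hold it in check, and Mdm2 is itself a p53 target, which closes a negative feedback loop. The SV40 large T antigen binds p53 in the region that contacts DNA and stabilises the protein while blocking much of its activity, and it also binds the retinoblastoma proteins. In such tissue a target transcript can also be driven by factors other than p53.

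Values are log2 expression values from RMA, so 1 unit is a 2-fold change in signal, and each is given per array in the order replicate 1, 2 and 3. With 3 arrays a group, their number sets the precision. The array medians lay between 5.30 and 5.38. Vehicle replicate 2 stood apart: its correlations across probe sets with the other arrays were 0.966 to 0.981, against 0.987 to 0.995 for every other pair. A mean over 6 seminal vesicle transcripts was 7.91 there and 3.56 to 5.08 on the other arrays. All 6 measured luminal prostate markers (Pbsn, Msmb, Hoxb13, Krt8, Krt18 and Tmprss2) gave array means of 11.79 to 12.09, and these overlapped between the groups. In bulk tissue, fewer cells of a type and less RNA per cell cannot be told apart.

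The promoter windows that show where the motif lies are printed for Mdm2 and Sesn1, which had probe sets reading higher with OSU-CG5, and for Cdkn1a, which did not. The printed genes do not stand for the whole list. Mdm4 also had a probe set reading higher, and its windows held no match. Ei24 and Ccng1 had no probe set with groups apart, and the window of each held a match. The motif is the p53 half-site, a decamer, searched with no mismatch. A half-site alone is not a whole p53 response element. The pattern is RRRCWWGYYY, where R is a purine, W is A or T and Y is a pyrimidine. This pattern is its own reverse complement, so 1 search covers both strands. Capitals mark each match, and each window is the 250 bases before a RefSeq transcript start (GRCm38.p6), written 5′ to 3′ on the strand of the gene. The Mdm2 window is chr10:117710759-117711008 (minus strand), the Sesn1 window chr10:41887189-41887438 (plus strand) and the Cdkn1a window chr17:29090729-29090978 (plus strand).
Mdm2: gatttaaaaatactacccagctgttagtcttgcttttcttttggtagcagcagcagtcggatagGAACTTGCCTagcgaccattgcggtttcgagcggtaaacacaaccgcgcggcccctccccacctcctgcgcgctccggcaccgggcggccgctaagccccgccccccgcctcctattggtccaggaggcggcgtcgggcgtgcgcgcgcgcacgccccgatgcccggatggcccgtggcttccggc
Sesn1: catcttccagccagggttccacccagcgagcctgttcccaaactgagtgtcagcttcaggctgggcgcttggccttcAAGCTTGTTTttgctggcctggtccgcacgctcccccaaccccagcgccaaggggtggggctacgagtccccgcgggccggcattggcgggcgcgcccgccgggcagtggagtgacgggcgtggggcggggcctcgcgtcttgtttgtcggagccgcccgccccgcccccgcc
Cdkn1a: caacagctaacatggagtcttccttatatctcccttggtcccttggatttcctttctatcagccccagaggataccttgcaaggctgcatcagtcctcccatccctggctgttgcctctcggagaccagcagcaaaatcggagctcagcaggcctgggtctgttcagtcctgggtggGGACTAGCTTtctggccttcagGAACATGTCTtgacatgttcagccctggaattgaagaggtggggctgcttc

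The first base of the match lay 186 bases before the start in Mdm2 and 173 bases before the more downstream RefSeq start in Sesn1. In Cdkn1a the matches began 73 and 51 bases before the more upstream RefSeq start. They lay far upstream of the other Cdkn1a start, whose window is chr17:29093519-29093768. RefSeq windows of 300 bases, 250 before and 50 after a start, were found for 8 of the 10 genes, 11 windows in all, and 6 of these held a match (54.5%). Over all 32851 such windows, 2745 held one (8.36%). These genes were listed for their ties to p53, as targets, as partners such as Mdm4 or as Trp53 itself, so the share is a description. The Trp53 window was among those with a match, though that gene was not analysed on the arrays. Neither of the Mdm4 windows nor the Phlda3 window held a match, and the other window of Sesn1 and of Cdkn1a held none. A match is a string of letters and not a bound site, and known p53 elements of several targets, among them those in the first intron of Mdm2, lie outside such windows.

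With OSU-CG5, 1 probe set each of Mdm2, Mdm4 and Sesn1 read higher than in vehicle at an unadjusted p under 0.05, by 1.44-fold, 2.05-fold and 1.52-fold. Cdkn1a, the cell cycle inhibitor p21 and the most used readout of p53 activity, differed by less than the spread between arrays on both of its probe sets. No member passed the threshold adjusted over all probe sets (limma with Benjamini-Hochberg adjustment, smallest adjusted p = 0.145). No probe set of any gene passed it either, 0 of 45037, which is 0.0%, so nothing below is a called change. At an unadjusted p under 0.05 there were 7399, the adjusted count was also 0 in a linear model without moderation, and limma with array quality weights gave 822.

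Counted over the members, 3 of 21 probe sets (14.3%) had an unadjusted p under 0.05 in limma, all 3 of them higher with OSU-CG5. Of all probe sets 16.4% had one, 9.63% higher and 6.8% lower, so the members' share was close to the background. The groups did not overlap for 6 of the 21 (28.6%), all higher, against 23.6% of all probe sets, 11.7% higher and 11.9% lower. All 6 belonged to Mdm2, Mdm4 and Sesn1. The median log2 difference of the 21 was 0.03, with a range from -0.25 to 1.04, against a median of -0.06 over all probe sets. Differences were above 0 for 13 of the 21 (61.9%), against 39.5% of all. With 1 probe set a gene, that of highest mean, 2 of 9 genes had an unadjusted p under 0.05, both higher, against 13.8% of 18193 genes, 5.4% higher and 8.43% lower. The groups of 3 of the 9 did not overlap, all higher, against 22.3% of genes, 8.1% higher and 14.2% lower. Over the members the SD of 3 arrays had a median of 0.13 for OSU-CG5 and 0.28 for vehicle, against 0.13 and 0.18 over all probe sets. The vehicle SD includes vehicle replicate 2, which stood apart, and a difference in spread was not tested. Vehicle replicate 2 was the lowest array for 9 of the 21 member probe sets (42.9%), against 20.9% of all probe sets, and the highest for 6 (28.6%), against 32.5% of all.

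**Figure D1:**
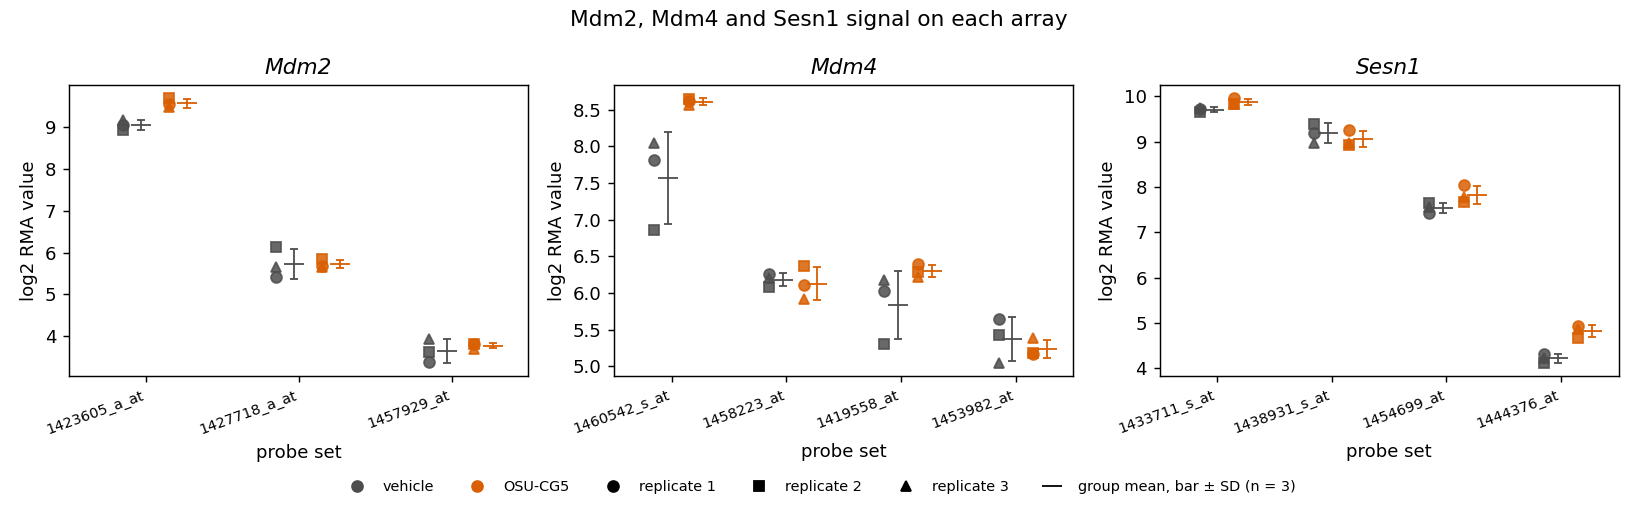
Signal (log2 RMA value, vertical axis) of each probe set of Mdm2, Mdm4 and Sesn1 on each array, with vehicle in grey and OSU-CG5 in orange; marker shape gives the replicate, and the dash and bar give the group mean ± SD (n = 3). The OSU-CG5 arrays lie above every vehicle array for 1 of 3 Mdm2, 2 of 4 Mdm4 and 3 of 4 Sesn1 probe sets, and vehicle replicate 2 (grey square) is far below the rest for Mdm4 1460542_s_at.

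Mdm2 was measured by 3 probe sets. On 1423605_a_at the vehicle arrays read 9.05, 8.92 and 9.15 and the OSU-CG5 arrays 9.54, 9.68 and 9.46. Every treated mouse was above every vehicle mouse, and the gap between the groups was wider than the range within either. The group means were 9.04 ± 0.11 and 9.56 ± 0.11 (SD, n = 3), a log2 difference of 0.52 (SE 0.12, 95% interval 0.24 to 0.80; limma adjusted p = 0.155). The other probe sets of Mdm2 did not show this. On 1427718_a_at the vehicle arrays read 5.42, 6.12 and 5.65 and the OSU-CG5 arrays 5.68, 5.84 and 5.66, a log2 difference of -0.01 (95% interval -0.42 to 0.41). On 1457929_at, near the bottom of the scale, the vehicle arrays read 3.39, 3.63 and 3.94 and the OSU-CG5 arrays 3.81, 3.83 and 3.71, a log2 difference of 0.13 (95% interval -0.22 to 0.48). In both of these the groups overlapped. The per-array gap of 1423605_a_at over 1427718_a_at was 3.84 ± 0.03 on the treated arrays against 3.31 ± 0.44 on the vehicle arrays (SD, n = 3; two-sided exact permutation p = 0.1, the smallest this design allows). The gaps of the groups did not overlap for this pair, while those of 1427718_a_at over 1457929_at did (two-sided exact permutation p = 0.7).

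Mdm4 was measured by 4 probe sets and had the largest difference of any member. On 1460542_s_at the vehicle arrays read 7.81, 6.86 and 8.04 and the OSU-CG5 arrays 8.62, 8.65 and 8.56. The treated arrays lay within 0.1 of each other and all above vehicle, whose replicate 2 was lowest by far. The group means were 7.57 ± 0.63 and 8.61 ± 0.05 (SD, n = 3), a log2 difference of 1.04 (SE 0.27, 95% interval 0.41 to 1.66; limma adjusted p = 0.173). Without vehicle replicate 2 the difference was 0.68 (SE 0.13; limma adjusted p = 0.0494), smaller but with less spread. With array quality weights it was 0.85 (SE 0.18; limma adjusted p = 0.0488), and over the 15 alternatives in which it was tested it ranged from 0.68 to 1.28 with adjusted p from 0.0488 to 0.457. The identifier of this probe set ends in s_at, which Affymetrix gives to probe sets that may match transcripts of more than 1 gene.

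On Mdm4 1419558_at the vehicle arrays read 6.02, 5.30 and 6.17 and the OSU-CG5 arrays 6.39, 6.28 and 6.22. The groups did not overlap, but by a small margin, and vehicle replicate 2 was again the lowest. The log2 difference was 0.47 (SE 0.22; limma adjusted p = 0.325) with all arrays and 0.20 (SE 0.13; limma adjusted p = 0.491) without vehicle replicate 2. The probe sets 1458223_at and 1453982_at differed by -0.06 (95% interval -0.38 to 0.27) and -0.13 (95% interval -0.52 to 0.25), with overlapping groups. On 1453982_at the vehicle arrays read 5.64, 5.43 and 5.05 and the OSU-CG5 arrays 5.16, 5.18 and 5.38. The gap of 1460542_s_at over 1453982_at was 3.37 ± 0.17 on the treated arrays against 2.19 ± 0.79 on the vehicle arrays, and over 1458223_at it was 2.48 ± 0.18 against 1.39 ± 0.55 (SD, n = 3; two-sided exact permutation p = 0.1 for each). Seminal vesicle transcripts, at 7.91 in vehicle replicate 2, were highest on the array where Mdm4 1460542_s_at was lowest, and their part in the result was not tested.

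Sesn1, a stress-induced sestrin that restrains mTORC1 signalling and is a p53 target, was measured by 4 probe sets. On 1444376_at the vehicle arrays read 4.31, 4.13 and 4.22 and the OSU-CG5 arrays 4.94, 4.67 and 4.87. The groups were clearly apart, with all vehicle mice close together. The means were 4.22 ± 0.09 and 4.83 ± 0.14 (SD, n = 3), a log2 difference of 0.61 (SE 0.12, 95% interval 0.32 to 0.89; limma adjusted p = 0.145), the smallest adjusted p of any member. It stayed between 0.54 and 0.71 under the alternatives in which it was tested. This signal was low, under the array medians.

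The other Sesn1 probe sets differed less. On 1454699_at the vehicle arrays read 7.42, 7.64 and 7.57 and the OSU-CG5 arrays 8.05, 7.66 and 7.79, which is 0.29 on the log2 scale (SE 0.14; limma adjusted p = 0.338). On 1433711_s_at the vehicle arrays read 9.73, 9.65 and 9.74 and the OSU-CG5 arrays 9.96, 9.83 and 9.83, which is 0.17 on the log2 scale (SE 0.11; limma adjusted p = 0.467). The groups did not overlap on either, though on 1454699_at OSU-CG5 replicate 2 and vehicle replicate 2 were almost level. On 1438931_s_at the vehicle arrays read 9.20, 9.40 and 8.97 and the OSU-CG5 arrays 9.25, 8.93 and 8.98, with overlap and a log2 difference of -0.13 (95% interval -0.48 to 0.21). Thus 3 of 4 probe sets read higher in all treated mice, and 1 read in the other direction within the spread.

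**Figure D2:**
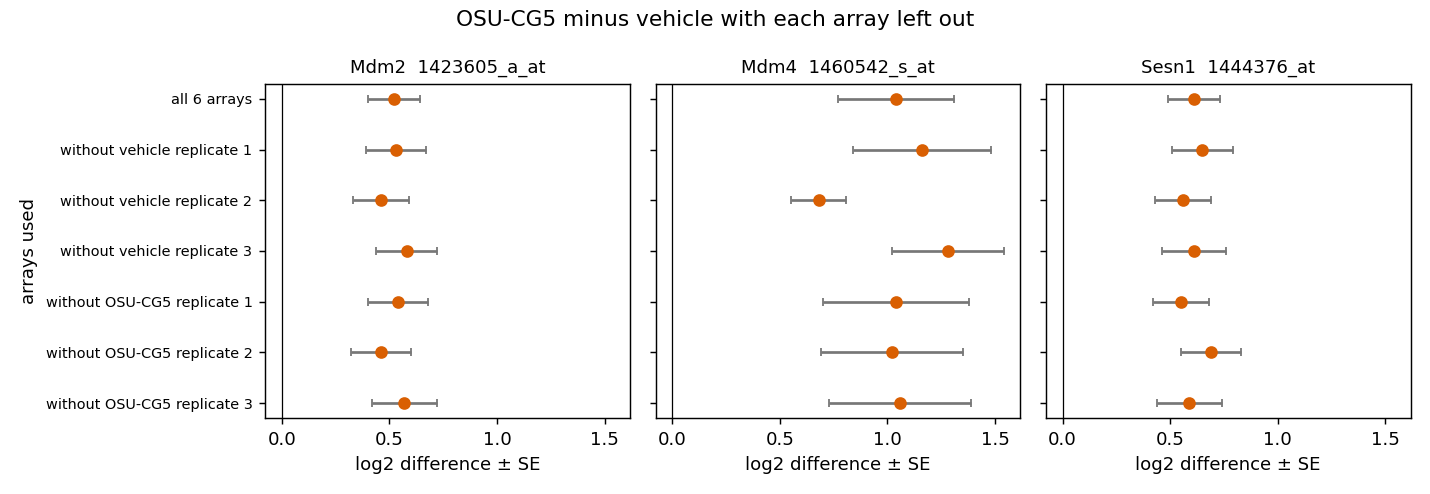
Log2 difference, OSU-CG5 minus vehicle, with its moderated SE (horizontal axis) for 3 probe sets, with all 6 arrays and with each array left out in turn (vertical axis). Mdm2 stays between 0.46 and 0.58 and Sesn1 between 0.55 and 0.69, while Mdm4 is 0.68 without vehicle replicate 2 and reaches 1.28 without vehicle replicate 3.

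Cdkn1a did not separate the groups. On 1424638_at the vehicle arrays read 6.35, 6.47 and 6.75 and the OSU-CG5 arrays 6.32, 6.56 and 6.71. Their ranges were nearly the same, and the group means were 6.52 ± 0.21 and 6.53 ± 0.20 (SD, n = 3), a log2 difference of 0.01 (SE 0.16, 95% interval -0.35 to 0.36; limma adjusted p = 0.984). On 1421679_a_at the vehicle arrays read 6.00, 5.87 and 5.67 and the OSU-CG5 arrays 5.85, 5.57 and 5.77, a log2 difference of -0.12 (95% interval -0.43 to 0.20). The intervals reach from -0.43 to 0.36 and do not show that the groups were equal. Among 9626 genes whose mean reached log2 6, the patterns most like that of 1424638_at were those of the histone variant Macroh2a1, the ubiquilin Ubqln4 and the ubiquitin ligase Rnf41. Their root mean square distances from it over the 6 arrays, each gene centred on its own mean, were 0.034, 0.049 and 0.055 log2 units, against a median of 0.26 over those genes.

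Ccng1, cyclin G1, which recruits a phosphatase to Mdm2, was the only gene of the 6 with several probe sets whose differences all had the same sign. On 1420827_a_at the vehicle arrays read 11.27, 10.42 and 11.01 and the OSU-CG5 arrays 11.15, 10.85 and 10.74. On 1450016_at they read 8.40, 7.56 and 8.53 in vehicle and 8.61, 8.54 and 8.08 with OSU-CG5, and on 1450017_at 8.46, 7.69 and 7.99 in vehicle and 8.71, 8.01 and 8.05 with OSU-CG5. Vehicle replicate 2 was the lowest array on all 3 and the groups overlapped on each. The log2 differences were 0.02, 0.24 and 0.21 (SE 0.22, 0.26 and 0.24; limma adjusted p = 0.979, 0.657 and 0.680). Without vehicle replicate 2 the first 2 were -0.22 and -0.06, so the shared sign did not hold without that array.

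**Figure D3:**
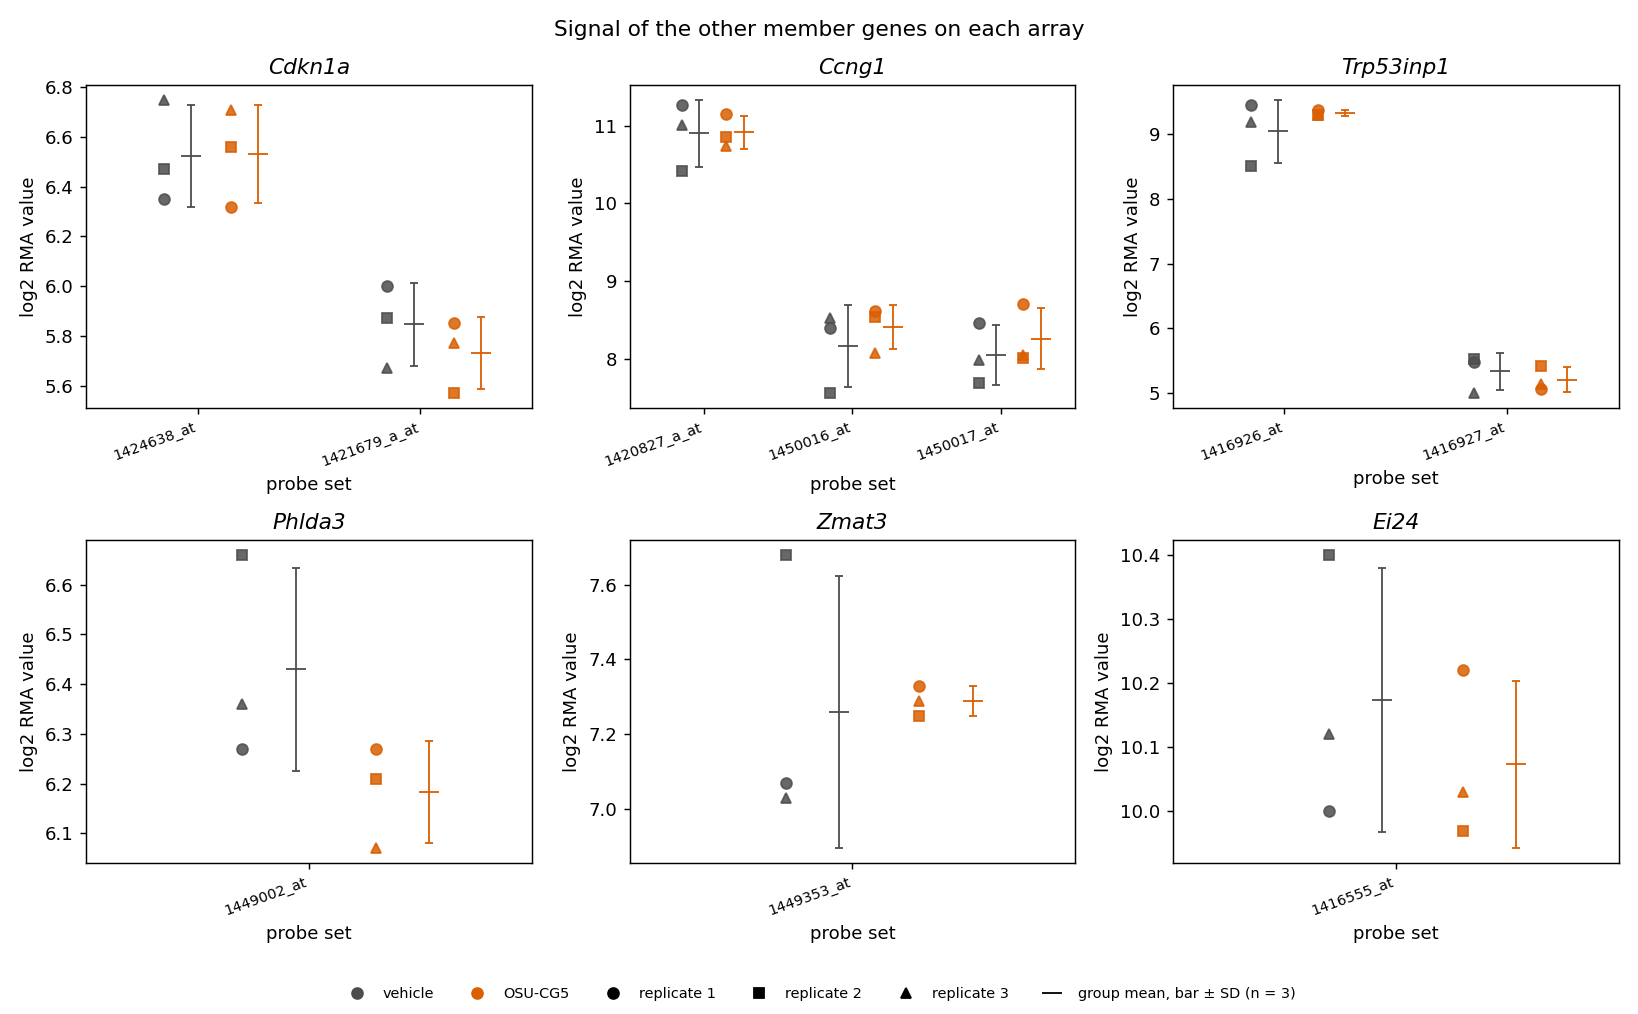
Signal (log2 RMA value, vertical axis, a separate scale for each gene) of the probe sets of Cdkn1a, Ccng1, Trp53inp1, Phlda3, Zmat3 and Ei24 on each array, drawn as for Mdm2, with the group mean ± SD (n = 3). The groups overlap for all 10 probe sets, and vehicle replicate 2 (grey square) is the array farthest from the others for several. It is low for Ccng1 1420827_a_at and 1450016_at and Trp53inp1 1416926_at, and high for Phlda3, Zmat3 and Ei24.

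Trp53inp1, a nuclear and autophagy protein that promotes p53-dependent cell death, read 9.44, 8.50 and 9.19 in vehicle and 9.37, 9.30 and 9.30 with OSU-CG5 on 1416926_at. Only vehicle replicate 2 was away from the rest, and the log2 difference was 0.28 (SE 0.22; limma adjusted p = 0.551), or 0.00 without that array. On 1416927_at it read 5.48, 5.52 and 5.0 in vehicle and 5.06, 5.42 and 5.14 with OSU-CG5, a log2 difference of -0.13 (95% interval -0.52 to 0.27). The probe sets of this gene had opposite signs, both within the spread.

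Phlda3, a pleckstrin-homology protein that competes with Akt for membrane lipids, read 6.27, 6.66 and 6.36 in vehicle and 6.27, 6.21 and 6.07 with OSU-CG5. With all arrays it had the lowest log2 difference of the members, -0.25 (SE 0.14, 95% interval -0.57 to 0.07; limma adjusted p = 0.404), and the groups met at 6.27. Without vehicle replicate 2 it was -0.13, and Ccng1 1420827_a_at was then lowest at -0.22. Zmat3, a zinc finger protein that binds RNA, read 7.07, 7.68 and 7.03 in vehicle and 7.33, 7.25 and 7.29 with OSU-CG5. The treated arrays lay between the vehicle ones, and the log2 difference was 0.03 (95% interval -0.38 to 0.44; limma adjusted p = 0.945), or 0.24 without vehicle replicate 2. Ei24, an endoplasmic reticulum protein of autophagy and cell death, read 10.00, 10.40 and 10.12 in vehicle and 10.22, 9.97 and 10.03 with OSU-CG5, a log2 difference of -0.10 (95% interval -0.43 to 0.22; limma adjusted p = 0.740), or 0.01 without vehicle replicate 2. All 3 of these genes had 1 probe set, and in all 3 vehicle replicate 2 was the highest array. Cdkn1a, Ccng1, Trp53inp1, Phlda3, Zmat3 and Ei24 are the members left once Mdm2, Mdm4 and Sesn1 are set aside. Mdm2, Mdm4 and Sesn1 held every member probe set with an unadjusted p under 0.05 in limma and every one with groups apart. The counts among the remaining 10 probe sets, 0 and 0, therefore follow from that split. Of all probe sets 16.4% and 23.6% met these criteria. The median log2 difference of the 10 was 0.01, with limma adjusted p from 0.404 to 0.984.

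**Figure D4:**
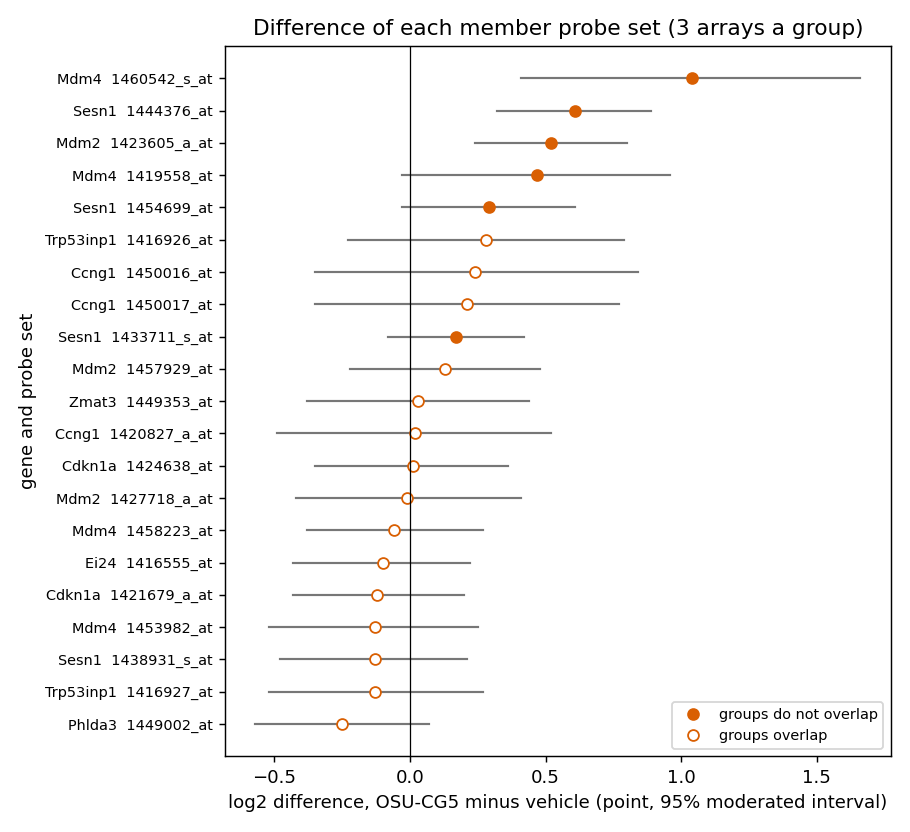
Log2 difference, OSU-CG5 minus vehicle, of each of the 21 member probe sets (points) with 95% moderated intervals (lines); filled points are probe sets whose groups do not overlap. The intervals of Mdm4 1460542_s_at, Sesn1 1444376_at and Mdm2 1423605_a_at lie above 0, and the other 18 include 0.

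Agreement between probe sets of a gene was compared over the 20 pairs that the 6 genes with several probe sets allow. The differences had the same sign in 9 pairs and opposite signs in 11. The per-array gap between the probe sets did not overlap between the groups in 9 pairs, 2 of Mdm2, 3 of Mdm4 and 4 of Sesn1. Each of these had a two-sided exact permutation p of 0.1 with n = 3 a group, the smallest possible, and an adjusted p of 0.222 over the 20 pairs. Pairs of a gene share probe sets, so they are not separate observations. The share of such pairs among other genes was not computed, so the count of 9 is a description without a background. The probe set with the largest difference of its gene was in 8 of these 9 pairs. This is partly built in, since the change of a gap is the difference between the log2 differences of its probe sets. Of the 21 intervals, 20 lay within 1 log2 unit of 0 on both sides, and the exception was Mdm4 1460542_s_at.

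Other p53 targets were split in direction. Of 49 genes listed, 45 were measured, and with 1 probe set each 8 had an unadjusted p under 0.05 in limma (17.8%), 3 higher and 5 lower, against 13.8% of all genes, 5.4% higher and 8.43% lower. None passed adjustment (smallest limma adjusted p = 0.183). The median log2 difference was -0.11, against -0.09 over all genes, and 14 of 45 were above 0 (31.1%), against 34.3% of all genes. The count was 3, 5, 4 and 4 without OSU-CG5 replicate 1, OSU-CG5 replicate 2, OSU-CG5 replicate 3 and vehicle replicate 2. In that order, these were 2 higher and 1 lower, 1 and 4, 1 and 3, and 3 and 1. Without vehicle replicate 1 it was 2 higher and 5 lower, and without vehicle replicate 3 it was 3 and 6. Among the 29 genes with a mean of at least log2 6 it was 2 higher and 1 lower. After repeated quantile normalization it was 1 higher and 7 lower, so the split in direction depended on the arrays and settings used.

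The 3 targets that read higher were Polk, Ercc5 and Apaf1. Polk, a translesion DNA polymerase, read 8.44, 8.12 and 8.46 in vehicle and 8.85, 8.82 and 8.76 with OSU-CG5, a log2 difference of 0.47 (SE 0.13), and its other probe set differed by -0.21. Ercc5, a nuclease of nucleotide excision repair, differed by 0.35 (SE 0.12). Its other probe set, near the bottom of the scale at 2.65 to 3.09, differed by 0.24. Apaf1, the scaffold of the apoptosome, differed by 0.28 (SE 0.12) and its other probe set by 0.05. In all 3 the groups did not overlap.

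The 5 that read lower included the proapoptotic Bcl2-family gene Bbc3 (Puma) at -0.44 (SE 0.17) and Sfn, the checkpoint protein 14-3-3 sigma, at -0.45 (SE 0.18), both with overlapping groups. The matrix protein gene Thbs1, near the bottom of the scale at 3.96, 4.36 and 3.82 in vehicle and 3.14, 3.65 and 3.64 with OSU-CG5, differed by -0.57 (SE 0.19), and its other probe set by -0.32. The stress kinase Plk3 differed by -0.30 (SE 0.11) and the adenylate kinase Ak1 by -0.32 (SE 0.13), with groups apart. The other probe set of Ak1, near the bottom of the scale at 3.09 to 3.58, differed by 0.16. Markers of several other cell types read lower beside these genes. Lower readings were common, with only 34.3% of all genes above 0. Fibroblast means overlapped between the groups, at 9.17 to 9.90 with OSU-CG5 and 9.57 to 9.78 in vehicle, as did smooth muscle and basal epithelial means. The endothelial and macrophage means were 5.0 to 5.23 and 6.39 to 6.61 with OSU-CG5 and 5.29 to 5.56 and 6.75 to 7.24 in vehicle, with 5 of 5 and 6 of 6 markers lower. Skeletal muscle markers averaged 4.81 to 5.76 with OSU-CG5 and 5.80 to 6.72 in vehicle, 5 of 5 lower, and lymphocyte markers 5.11 to 5.23 and 5.28 to 5.33, 4 of 5 lower. The part of these cell types in the lower signal of targets such as Thbs1 was not tested. Stress targets often read with Cdkn1a gave Gadd45a at -0.29 (95% interval -0.95 to 0.36), Btg2 at -0.32 (95% interval -0.94 to 0.30), Perp at -0.08 and Fas at 0.03, all with overlap. Vehicle replicate 2 was the highest array for Gadd45a and Btg2. Other stress targets read higher, Ddb2 at 0.45 (95% interval -0.03 to 0.93) and Ddit4 at 0.28 (95% interval -0.09 to 0.65), also with overlap. These genes were named after their values were seen, and 14 of the 45 listed targets were above 0.

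**Figure D5:**
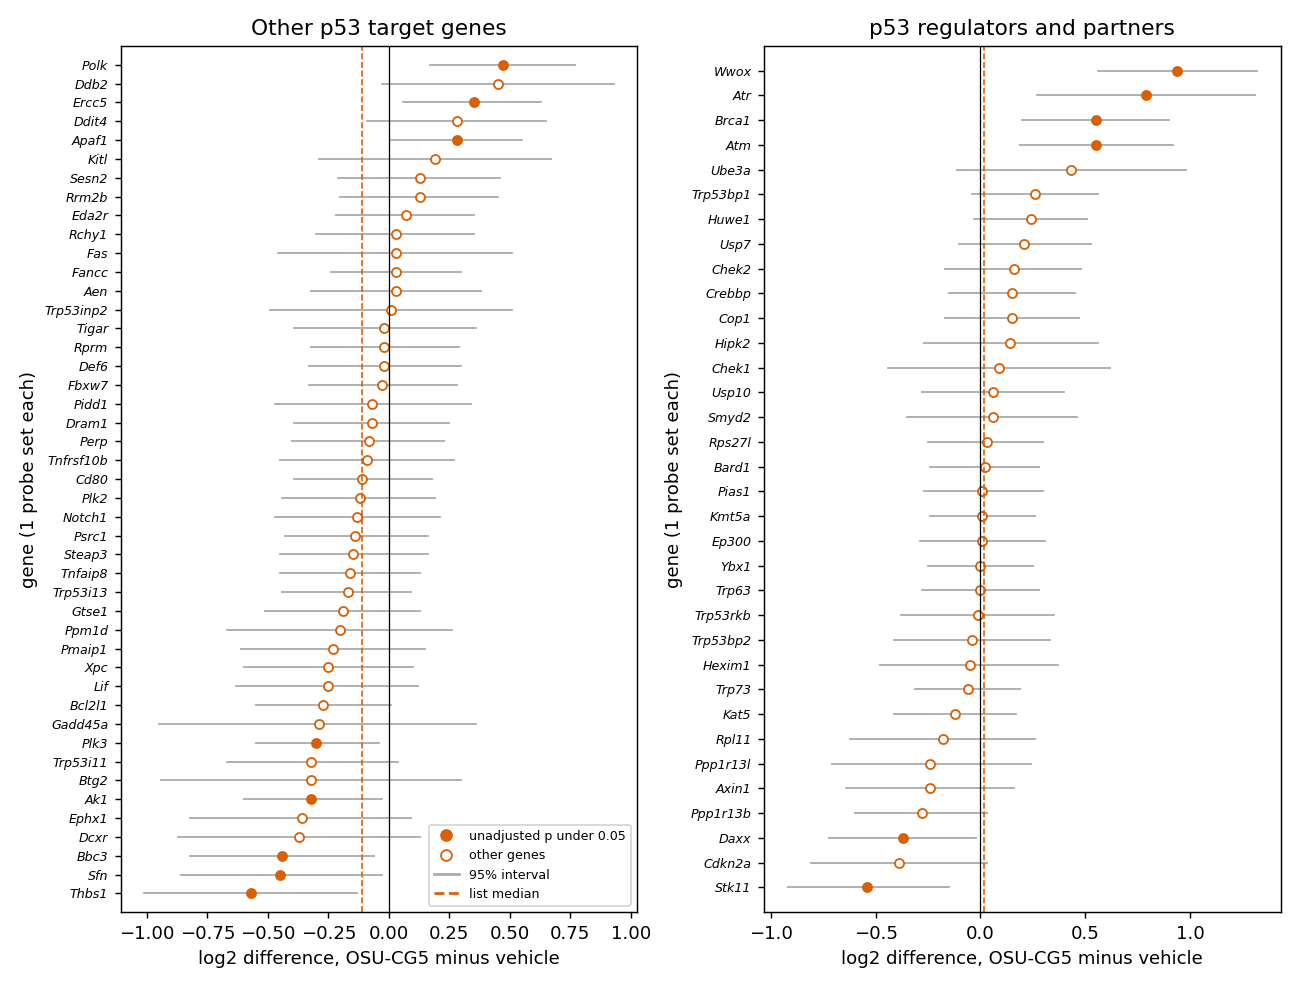
Log2 difference, OSU-CG5 minus vehicle (horizontal axis), of 45 other p53 target genes and 34 p53 regulators and partners, 1 probe set a gene, with 95% moderated intervals; filled points have an unadjusted p under 0.05 in limma and the dashed lines are the list medians, -0.11 and 0.02. The largest differences are Wwox at 0.94 and Atr at 0.79 among the regulators, and Thbs1 at -0.57 among the targets.

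Among regulators and partners of p53, 34 of 36 listed genes were measured, and 6 had an unadjusted p under 0.05 in limma (17.6%), 4 higher and 2 lower, against the same 13.8% of all genes. The smallest limma adjusted p was 0.134, and the median log2 difference was 0.02 against -0.09 over all genes. The 4 higher were Wwox, an oxidoreductase that binds p53 family proteins, the damage kinases Atm and Atr, and the repair protein Brca1. With arrays centred on their median 4 were higher and 1 lower, and with repeated quantile normalization or cyclic loess 4 were higher and 3 lower.

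Atm, which signals DNA double-strand breaks to p53, read 9.01, 8.51 and 8.83 in vehicle and 9.15, 9.40 and 9.46 with OSU-CG5, which is 0.55 on the log2 scale (SE 0.16; limma adjusted p = 0.189), and its other probe set differed by 0.67 (SE 0.17). Both probe sets of Atm had groups apart. Atr, which signals stalled replication, read 7.49, 6.61 and 7.44 in vehicle and 7.86, 8.05 and 7.99 with OSU-CG5, which is 0.79 on the log2 scale (SE 0.23; limma adjusted p = 0.190). Its other probe sets differed by 0.89 (SE 0.32) and 0.44 (SE 0.38). Vehicle replicate 2 was the lowest array on each probe set of Atm and Atr, as it was for Mdm4 1460542_s_at and 1419558_at.

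Wwox read 6.90, 6.42 and 6.68 in vehicle and 7.57, 7.85 and 7.42 with OSU-CG5, which is 0.94 on the log2 scale (SE 0.17; limma adjusted p = 0.134), while its other probe sets differed by 0.47, -0.15 and -0.03. Brca1 differed by 0.55 (SE 0.15, limma adjusted p = 0.184), and its other probe sets by -0.37, 0.21 and 0.25, the last near the bottom of the scale. The 2 lower genes were the AMPK-activating kinase gene Stk11 at -0.54 (SE 0.17) and Daxx, a histone chaperone that binds Mdm2, at -0.37 (SE 0.15), both with groups apart. Cdkn2a, whose Arf product inhibits Mdm2, differed by -0.39 (SE 0.18; limma adjusted p = 0.337) with overlapping groups, and Huwe1, a ubiquitin ligase of p53, by 0.24 (SE 0.12; limma adjusted p = 0.344). The other probe sets of Huwe1 differed by 0.00, 0.51, 0.69 and -0.31, with groups apart for the third of these, and that of Stk11 by -0.14. The Huwe1 probe set at -0.31 was near the bottom of the scale, at 2.64 to 3.19. The mean of 9 cell cycle markers was 9.23 to 9.39 with OSU-CG5 and 8.98 to 9.20 in vehicle, 7 of the 9 higher. Its part in the values of Brca1, Atr and other genes tied to replication was not tested.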

How the data were processed

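Each of the 6 arrays, 3 vehicle and 3 OSU-CG5, was assigned to its group by its tissue source label, and replicate numbers only name the mice. Of the 3 treated samples, 2 carry another number after the compound's prefix in their free-text description. The source label and title, which name OSU-CG5 or CG5 for all 3, were followed. The authors deposited log2 values, 1 for each probe set and array, made with RMA per the submitters' processing notes; for the program that ran it, name and version are not given here. RMA includes quantile normalization, which partly removes a shift shared by most transcripts. Removing 64 Affymetrix controls left 45037 probe sets; 34945 had 1 symbol in the platform annotation, 932 several and 9160 none here. Labels name trizol extraction and 2 ug of RNA.

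OSU-CG5 minus vehicle was fitted with limma's lmFit and eBayes (limma 3.58.1, R 4.3.3) over all probe sets, with no filter and Benjamini-Hochberg adjustment at 0.05. SE and 95% intervals are moderated. Gaps between probe sets were compared by exact permutation (scipy 1.17.1). Further gene lists used each gene's probe set of highest mean, with older symbols looked up in RefSeq's gene table. The fit was tested on simulated data. Named were all member probe sets, up to 8 genes of each further list with the smallest unadjusted p, and the 3 genes most like Cdkn1a. Gadd45a, Btg2, Perp, Fas, Ddb2 and Ddit4 were named after their values were seen. The members and lists were chosen with earlier results of these data known. The settings also tried were array quality weights, no moderation, a robust prior with an intensity trend, cyclic loess, quantile normalization applied again, median centring, a floor on the mean at log2 4 or 6, 1 probe set a gene, no probe sets of shared-transcript identifiers, and each array left out. Promoter sequences are RefSeq's (GRCm38.p6).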

Additional observations from a re-analysis of the deposited data

How the results depend on the processing

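Of 310 refits of single member probe sets under 16 alternatives, 283 kept their direction and side of the threshold, 25 changed sign and 2, both of Mdm4 1460542_s_at (without vehicle replicate 2 and with array quality weights), passed it. Mdm2 1423605_a_at, Sesn1 1444376_at and Mdm4 1460542_s_at never changed sign. Sign changes were of probe sets with a difference of 0.24 or less in size with all arrays: with repeated quantile normalization Ccng1 1420827_a_at was -0.01, Cdkn1a 1424638_at -0.06 and Zmat3 -0.05; with cyclic loess Ccng1 1420827_a_at was -0.02 and Mdm2 1427718_a_at 0.06; with array quality weights Ccng1 1420827_a_at was -0.22, Ccng1 1450017_at -0.08 and Mdm2 1427718_a_at 0.15. Leaving out arrays in turn gave -0.22 to 0.20 for Ccng1 1420827_a_at, -0.06 to 0.43 for 1450016_at and -0.02 to 0.42 for 1450017_at, -0.08 to 0.12 for Cdkn1a 1424638_at, -0.16 to 0.19 for Mdm2 1427718_a_at and 0.00 to 0.27 for 1457929_at, -0.17 to 0.05 for Mdm4 1458223_at and -0.30 to 0.00 for 1453982_at, -0.08 to 0.24 for Zmat3, and -0.19 to 0.01 for Ei24. Without a change of sign, Trp53inp1 1416926_at gave 0.00 to 0.48 and Phlda3 -0.33 to -0.13. Adjusted calls over all probe sets, 0 with all arrays, were 822 with array quality weights and 0 to 885 with arrays left out (400 without vehicle replicate 2, 885 without vehicle replicate 3). The median of the member probe sets, 0.03, was 0.17 with a mean of at least log2 6, where fewer probe sets were tested, and 0.00 to 0.12 with arrays left out. Member probe sets with an unadjusted p under 0.05, 3 in all, numbered 1 without shared-transcript identifiers, which removes the Mdm2 and Mdm4 probe sets, and 3 to 4 with arrays left out. For the other p53 targets, 8 in all, the count was 3 with a mean of at least log2 6 and 3 to 9 with arrays left out; for the regulators, 6 in all, it was 4 to 8. Except where the removal of probe sets shows it, the cause was not tested. No paired analysis was possible because the replicate numbers only name the mice. Signal over background could not be judged, since raw probe intensities were not used here.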

Other observations

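The p53 half-site decamer was also counted in the RefSeq windows of the further gene lists. Of 57 windows of 39 other p53 target genes, 8 held a match (14.0%), and of 41 windows of 32 regulators and partners, 2 did (4.88%), against 8.36% of all windows. Single matches in member windows not printed in the report lay in Ei24, beginning 10 bases before the start, in Ccng1, beginning 185 bases before it, and in Trp53, beginning 75 bases before it.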
